A study of Mus musculus with 8 samples.

Results

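The cyclin-dependent kinase (CDK) inhibitor genes were examined in an H3K27me3 chromatin immunoprecipitation sequencing (ChIP-seq) dataset of primary female neural stem cells (NSCs). The members were 6 genes, Cdkn1a, Cdkn1b, Cdkn2a, Cdkn2b, Cdkn2c and Cdkn2d. A region of the deposited table was assigned to a member when it overlapped the gene body widened by 5 kb on each side, on the GRCm38 build. Of the 13585 regions in the table, 2 met this rule, 1 at Cdkn2a and 1 at Cdkn2b, and 4 of the 6 genes had none. By the same rule 43.3% of the 21755 protein-coding genes had a region.

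NSC lines were derived from the cortex of E14.5 embryos of C57BL/6J mice and cultured for fewer than 10 passages. In every line the endogenous Smchd1 gene carried a GFP tag. WT lines had the genotype Smchd1GFP+/+, and mutant lines were homozygous for MommeD43, with the genotype Smchd1GFPMommeD43/MommeD43. MommeD43 is a missense variant in the extended ATPase domain of SMCHD1, a chromatin protein that takes part in gene silencing, and the allele used here was recreated in the GFP-tagged mice by genome editing together with a silent change in the guide's recognition site. For each genotype the mark was profiled in 3 libraries, made from separate cell lines, beside 1 library of whole cell extract. The comparison asked whether H3K27me3 at these genes differed between the genotypes. The table gives 1 value per genotype and region, the authors' mean over the ChIP libraries of the log2 normalized read count. No value below therefore has an SD, no difference has a replicate check and no p-value is given. Counts were scaled to library size, so each difference is relative and cannot show a change shared by the whole genome. Higher and lower are used below in this relative sense. The study itself calls its H3K27me3 ChIP-seq poorly suited to comparing levels of the mark. By immunofluorescence it measured lower H3K27me3 in mutant nuclei.

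CDK inhibitors hold back the kinases that drive cells through the cell cycle. The Ink4 proteins, encoded by Cdkn2a (p16INK4a), Cdkn2b (p15INK4b), Cdkn2c and Cdkn2d, bind CDK4 and CDK6 and keep the retinoblastoma protein active, whereas the Cip/Kip proteins encoded by Cdkn1a (p21) and Cdkn1b (p27) bind complexes of CDK2 and other kinases with their cyclins. Cdkn2a also encodes, from another first exon read in another frame, p19ARF, which stabilizes p53 by binding MDM2. H3K27me3 is placed by Polycomb repressive complex 2, and the Cdkn2a and Cdkn2b locus is a textbook target of Polycomb silencing in growing cells, NSCs included. Loss of the Polycomb protein BMI1 raises Ink4a and Arf expression in neural stem cells.

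The starts of both Cdkn2a transcripts and of Cdkn2b lay inside regions. Their promoter sequences, and that of Cdkn1b as a member without a region, are shown because they are the control elements on which the presence or absence of the mark bears. Each runs 5′ to 3′ on the strand of the gene, from 250 bases before to 50 bases after the start in RefSeq (GRCm38.p6), with every CpG in capitals. The p19ARF promoter is chr4:89294570-89294869, the p16INK4a promoter chr4:89282143-89282442 and the Cdkn2b promoter chr4:89310983-89311282, all on the minus strand, and the Cdkn1b promoter is chr6:134920151-134920450 on the plus strand.
Cdkn2a p19ARF: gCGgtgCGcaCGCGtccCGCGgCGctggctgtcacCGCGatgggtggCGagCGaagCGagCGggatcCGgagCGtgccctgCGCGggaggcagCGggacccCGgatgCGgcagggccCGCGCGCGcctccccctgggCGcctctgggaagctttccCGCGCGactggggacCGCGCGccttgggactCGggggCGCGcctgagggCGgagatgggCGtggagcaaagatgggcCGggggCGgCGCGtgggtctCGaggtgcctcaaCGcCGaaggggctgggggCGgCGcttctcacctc
Cdkn2a p16INK4a: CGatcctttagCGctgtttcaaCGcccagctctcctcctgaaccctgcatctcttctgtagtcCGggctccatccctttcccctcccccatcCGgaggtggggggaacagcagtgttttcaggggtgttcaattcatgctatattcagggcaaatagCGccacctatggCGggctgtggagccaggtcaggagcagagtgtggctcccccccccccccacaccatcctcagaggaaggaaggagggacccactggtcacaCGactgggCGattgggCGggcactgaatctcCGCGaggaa
Cdkn2b: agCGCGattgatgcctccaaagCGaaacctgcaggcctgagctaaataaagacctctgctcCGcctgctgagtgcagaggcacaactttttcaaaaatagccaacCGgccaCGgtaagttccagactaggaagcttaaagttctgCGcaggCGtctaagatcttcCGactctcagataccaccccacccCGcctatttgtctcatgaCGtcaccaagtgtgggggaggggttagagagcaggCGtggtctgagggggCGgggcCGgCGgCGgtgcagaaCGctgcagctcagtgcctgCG
Cdkn1b: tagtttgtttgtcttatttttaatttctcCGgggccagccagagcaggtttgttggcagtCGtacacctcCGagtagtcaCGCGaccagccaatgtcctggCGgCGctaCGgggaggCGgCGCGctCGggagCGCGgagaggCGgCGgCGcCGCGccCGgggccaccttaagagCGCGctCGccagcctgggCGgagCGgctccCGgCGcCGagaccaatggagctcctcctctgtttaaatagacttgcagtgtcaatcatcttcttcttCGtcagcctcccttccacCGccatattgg

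The p19ARF promoter held 45 CpG dinucleotides, and only 1.95% of the 32619 promoters in the RefSeq table held as many. The p16INK4a promoter held 12, a count reached by 39.9% of promoters, and the Cdkn2b promoter held 18, reached by 29.9%. Each member without a region had a promoter with 22 CpG or more, but not every promoter of these members did. The Cdkn1b promoter held 30, the Cdkn2d promoter 22, the upstream Cdkn2c promoter 33 and the downstream one 8. The upstream Cdkn1a promoter held 2, a count reached by 86.1% of promoters, and the downstream one held 23. The median over all promoters was 7. Promoters inside a region, 27.3% of all, had a median of 12 CpG, and those outside had a median of 6. The GC box GGGCGG, counted on both strands and itself containing a CpG, occurred 3 times in the p19ARF promoter, 1 time in each of the p16INK4a, Cdkn2b and Cdkn1b promoters, 5 times in the Cdkn2d promoter, 4 times in the upstream Cdkn2c and 2 times in the downstream Cdkn1a promoter. It was not in the other Cdkn2c and Cdkn1a promoters, and 35.9% of all promoters held it. These matches describe the sequence and mark no bound site.

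Cdkn2a lay within a broad and dense H3K27me3 domain in both genotypes. The region chr4:89250501-89299450, 48950 bp long, contained the whole gene (chr4:89274471-89294653, minus strand) with every exon of the p16INK4a and p19ARF transcripts. It reached 4797 bp past the 5′ end of the gene and 23970 bp past its 3′ end, over 22903 bp of the 37705 bp lincRNA gene Gm12606. The gene itself made up 41.2% of the region. The p19ARF start lay 4831 bp inside the upstream edge of the region, and the p16INK4a start 17258 bp inside it.

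The log2 normalized count of the Cdkn2a region was 13.79 in WT and 13.62 in MommeD43. Per kilobase of region this is a level of 289 normalized counts in WT and 257 in MommeD43, against medians of 33.7 and 34.7 over all regions. In level per kilobase the Cdkn2a region ranked 45 of 13585 in WT and 131 in MommeD43, and 3 and 9 among the 818 regions of chromosome 4. Of the 522 other autosomal regions of similar length (39200 to 61100 bp), 16 had a higher level per kilobase in WT and 35 in MommeD43. Dense marking of Cdkn2a was thus present with the variant as without it.

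The difference at Cdkn2a, MommeD43 minus WT, was -0.17 on the log2 scale, a ratio of MommeD43 to WT counts of 0.890. The geometric mean read count behind it was 4322 per library in WT and 4775 in MommeD43, read back from the values. The count in MommeD43 was therefore the higher before scaling to library size and the lower after it. The smallest counting error that these reads allow is 0.017, with a 95% interval of -0.20 to -0.13. This interval covers counting error only. The study's methods describe no removal of PCR copies, so these may be counted along with originals. Variation between cell lines is left out. In bulk ChIP, fewer cells or alleles carrying the mark and less of it on each cannot be told apart. The median difference over all 13585 regions was 0.11, with quartiles of -0.19 and 0.39, and 27.8% of autosomal regions had a difference as low as Cdkn2a or lower. Autosomal regions of similar length had a median of 0.20, with quartiles of -0.05 and 0.43, and 86 of the 522 were lower than Cdkn2a.

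Cdkn2b, the neighbor of Cdkn2a on the same strand, was covered by a separate and much weaker region. The region chr4:89304051-89313700, 9650 bp long, contained the whole gene (chr4:89306299-89311039). It extended 2661 bp past the 5′ end of the gene and 2248 bp past its 3′ end. Regions include the 2.5 kb by which the authors widened each peak. That margin is more than the 2248 bp and nearly all of the 2661 bp, so the peak itself need not cover the whole gene. A gap of 4600 bp separated it from the Cdkn2a region. Its log2 normalized count was 8.27 in WT and 7.89 in MommeD43. The level per kilobase was 31.9 normalized counts in WT, close to the median region, and 24.6 in MommeD43, with ranks of 7482 and 10278. Of the 2777 other autosomal regions of similar length (7850 to 12050 bp), 1820 had a higher level per kilobase in WT and 2440 in MommeD43. The Cdkn2a region had 9.05 times the level per kilobase of the Cdkn2b region in WT and 10.5 times in MommeD43. The 2.5 kb added on each side of a peak is a larger share of the shorter region, which this ratio does not allow for.

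The difference at Cdkn2b was -0.38, a ratio of MommeD43 to WT counts of 0.771, with a counting error of 0.12 and a 95% counting interval of -0.62 to -0.13. It rested on 94.1 reads per library in WT and 90.1 in MommeD43. As deposited, the Cdkn2a difference exceeded that of Cdkn2b by 0.21, with a counting interval of -0.04 to 0.45, which includes 0. Their order was not stable under the corrections given below. It reversed, to -0.48 at Cdkn2a and -0.44 at Cdkn2b, with the trend with mean value removed. With the GC trend removed they stood wider apart, at -0.012 and -0.32. Both members were thus below 0, as were 39.8% of all regions. Their counting intervals also lay below 0, as did those of 23.4%. Neither was lower by 1 or more on the log2 scale, as 3.03% of all regions were. The median of both differences was -0.27, against 0.11 over all regions. With only 2 regions this describes the locus and is not a result about CDK inhibitor genes as a class.

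**Figure D1:**
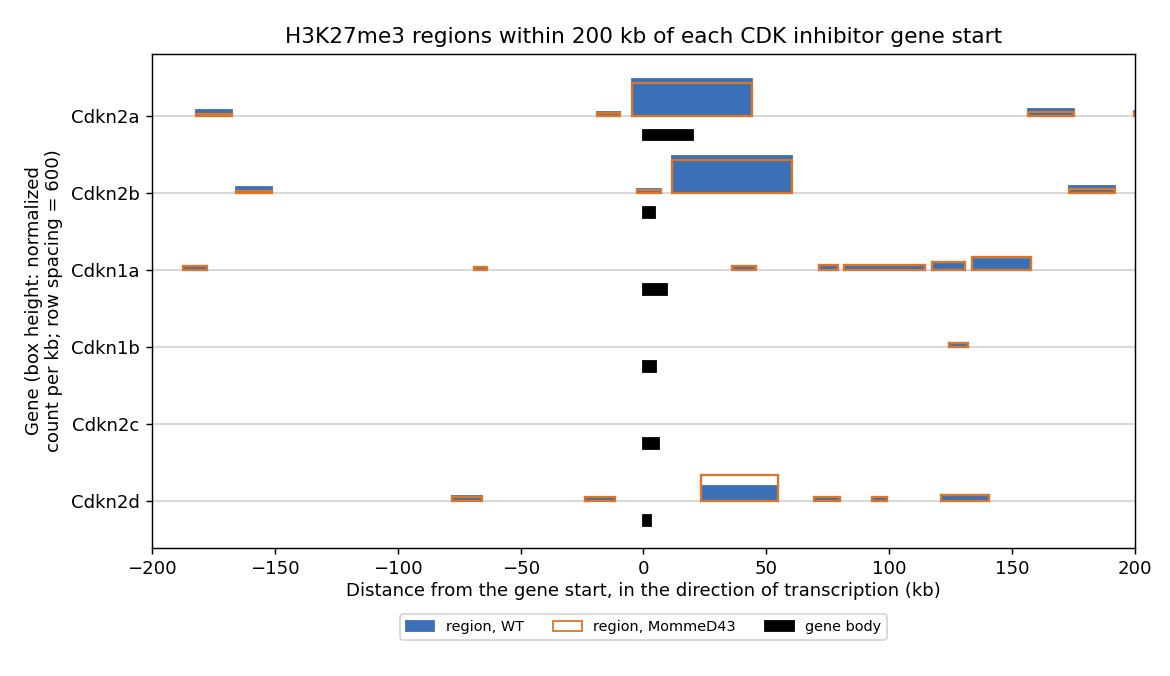
H3K27me3 regions around the start of each CDK inhibitor gene, with distance from the gene start in kb on the horizontal axis and the level of each region, in normalized counts per kb, as box height (blue filled WT, orange outline MommeD43). Black bars are gene bodies. Boxes overlie the Cdkn2a and Cdkn2b bodies and no other member, and the Cdkn2a box is the tallest at 289 in WT and 257 in MommeD43.

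The size of the Cdkn2a value depended on the correction made. Differences between the columns followed GC content over autosomal regions, and at the 43.0% GC of the Cdkn2a region the running median of the difference was -0.16. With this trend removed the Cdkn2a difference was -0.012, which is less than its counting error, and the Cdkn2b difference, at 44.1% GC, was -0.32. Of the autosomal regions so corrected, 48.3% were as low as Cdkn2a or lower, and 15.3% as low as Cdkn2b or lower. When the regions were instead scaled to an equal total, which lowers every difference by 0.24, the values were -0.41 and -0.62. Removing the trend with mean value moved Cdkn2a the other way from the GC correction, to -0.48, and gave -0.44 at Cdkn2b. The sign was negative under each alternative tried. The part of base composition in these values was not tested.

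The stretch of chromosome 4 around the locus was examined after the values were seen. The Cdkn2a and Cdkn2b regions stood in a run of 13 consecutive regions that were all lower in MommeD43, from chr4:88402551 to 89698000, a span of 1.3 Mb. For all 13 the counting interval lay below 0, as it did for 23.4% of all regions. The median of the run was -0.81, with a range from -1.61 to -0.17, while the regions just before and just after the run were higher by 0.56 and 0.38. Cdkn2a had the difference closest to 0 in the run, and Cdkn2b ranked 3. Runs of at least 13 lower regions were found 28 times on autosomes and took up 4.0% of the 11707 autosomal regions, and runs of at least 13 higher regions were found 85 times. With the GC trend removed 12 of the 13 regions were still below 0, with a median of -0.46.

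On the 5′ side of Cdkn2b, toward Dmrta1, the nearest region was chr4:89462151-89476750, 151112 bp away at the noncoding gene Gm12610. Its level per kilobase was 47.7 normalized counts in WT and 17.2 in MommeD43, a difference of -1.47 with a counting interval of -1.68 to -1.27. Farther out, the region over Dmrta1, which encodes a DM-domain transcription factor, had a level of 107.6 per kilobase in WT and 46.6 in MommeD43, a difference of -1.21. The differences became -1.14 and -0.80 after the GC correction. Both levels were well below that of Cdkn2a in each genotype.

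On the 3′ side of Cdkn2a the nearest region, 136421 bp away, held the start of Mtap, an enzyme of methionine salvage, and differed by -0.81, from 49.8 per kilobase in WT to 28.4 in MommeD43. The next regions lay at intergenic sequence, with a difference of -0.91, and at the lincRNA gene Wincr1, with -1.61, the lowest of the run, on 81.9 reads per library in WT and 33.3 in MommeD43. The region of the lincRNA gene AL805899.1 had the second highest level per kilobase of the run, 131 in WT and 63.5 in MommeD43, and differed by -1.04. A 78650 bp region over type I interferon genes, Ifna1, Ifna4, Ifna5, Ifna6, Ifna7, Ifna11 and Ifne among them, differed by -0.81. Without the GC trend the differences were -0.60 at Mtap, -0.46 at the intergenic region, -0.58 at both Wincr1 and AL805899.1, and -0.47 at the interferon genes. Of the regions in the run, Cdkn2a had the highest level in each genotype.

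**Figure D2:**
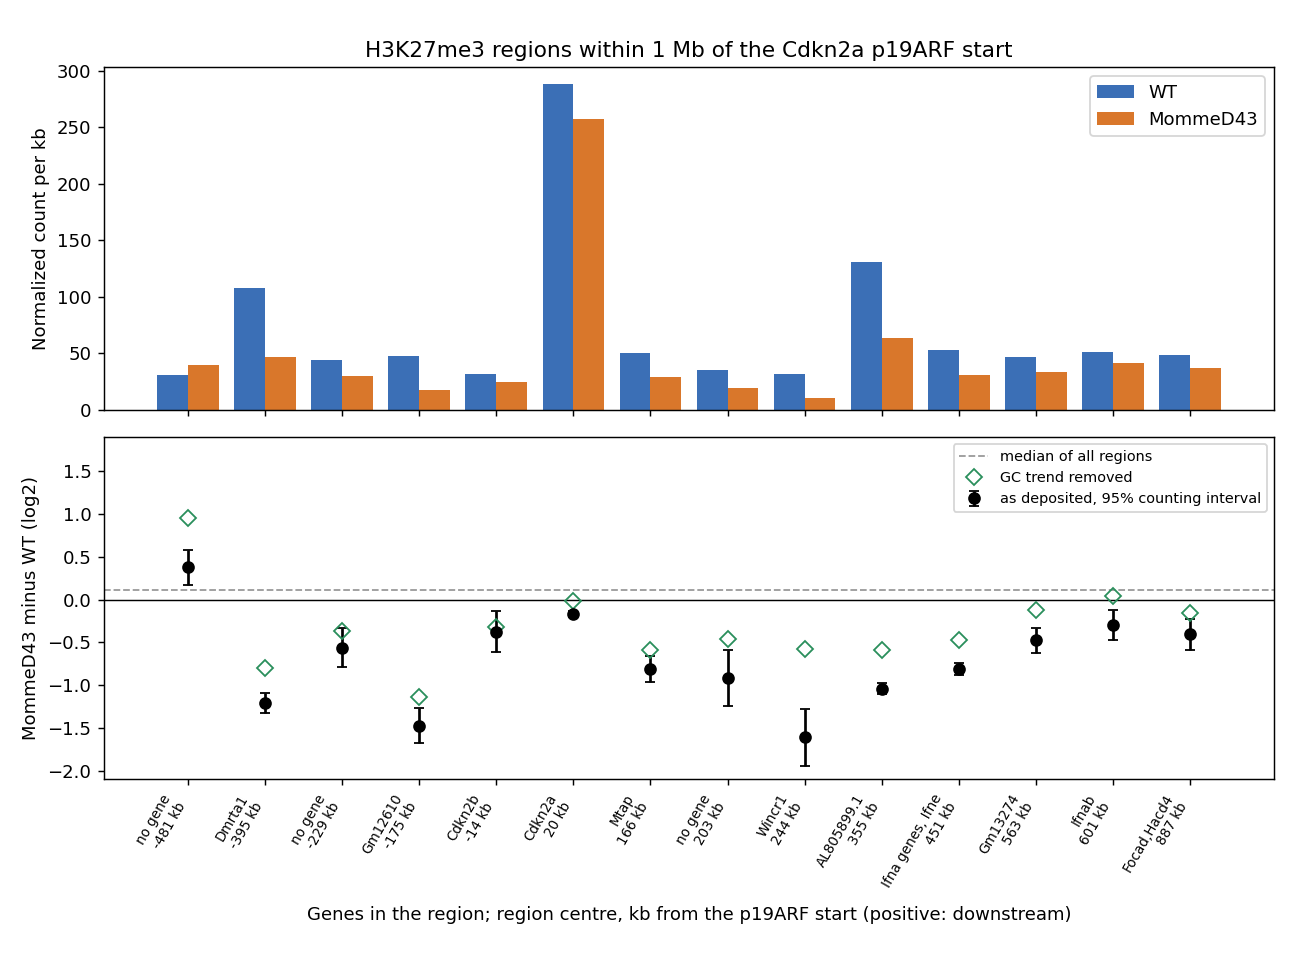
Regions within 1 Mb of the p19ARF start, in order along the chromosome, with the level in normalized counts per kb as bars (top, blue WT and orange MommeD43) and the difference MommeD43 minus WT on the log2 scale (bottom, black points with 95% counting intervals, green diamonds with the GC trend removed, dashed line at the median of all regions, 0.11). The 13 regions from Dmrta1 to Focad lie below 0 as deposited, and the Cdkn2a point at -0.17 is the highest of them.

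Within 500 kb of Cdkn2a or Cdkn2b there were 9 other regions, of which 8 were lower and 1 higher in MommeD43, with a median difference of -0.91. Of these 4 were lower by at least 1, where 3.03% of all regions were. With the GC trend removed the median became -0.58 and 8 of the 9 were still below 0, but only Gm12610 stayed lower by at least 1, and the count over all regions went from 412 to 97. Chromosome 4 as a whole, with 818 regions, had a median of 0.19. In the plot of difference against mean value over all regions, Cdkn2a sits at the high end of the values, with rank 208 by WT value, and the Cdkn2b point sits near the middle.

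**Figure D3:**
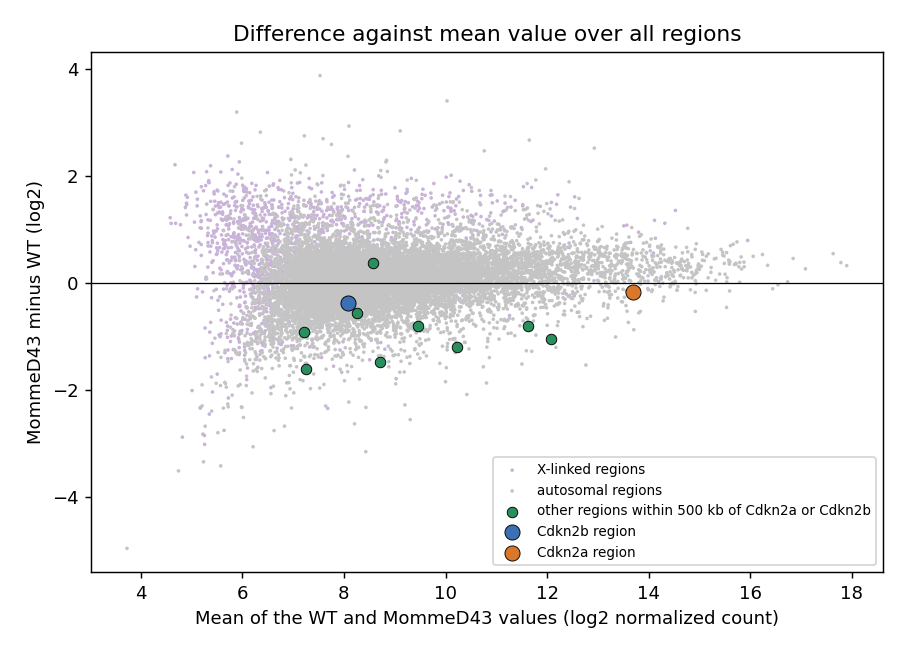
Difference MommeD43 minus WT (vertical, log2) against the mean of both values (horizontal, log2 normalized count) for all 13585 regions (grey autosomal, pale purple X-linked). The Cdkn2a region (orange) lies at -0.17, the Cdkn2b region (blue) at -0.38, and 8 of the 9 other regions within 500 kb (green) lie below 0.

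No region lay within 5 kb of Cdkn1a, Cdkn1b, Cdkn2c or Cdkn2d, so that neither genotype has a value for these members. Across the genome 29.9% of protein-coding genes had their start inside a region, as 2 of the 6 members did. Absence of a row means that no peak was called nearby in either genotype, not that the mark is absent.

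Cdkn1a (chr17:29090976-29100727), whose product p21 is a main effector of p53, had its nearest region 26324 bp beyond its 3′ end, at Rab44. Its level was 29.3 per kilobase in WT and 33.5 in MommeD43, a difference of 0.19 with a counting interval of -0.04 to 0.42. On its 5′ side the nearest region was 63776 bp away and differed by 0.06. Both turned below 0 without the GC trend, to -0.10 and -0.13. All 14 regions within 500 kb of Cdkn1a were higher in MommeD43, with a median of 0.28, against 0.19 on chromosome 17. With the GC trend removed their median was -0.08 and 9 of the 14 were below 0.

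Cdkn1b (chr6:134920401-134925513), which encodes p27, had its nearest region 119088 bp past its 3′ end, in intergenic sequence, with 35.3 per kilobase in WT, 35.5 in MommeD43 and a difference of 0.01, or -0.17 without the GC trend. On its 5′ side the nearest region was 3508301 bp away. Of the 6 regions within 500 kb, 5 were lower in MommeD43, with a median of -0.37 against -0.04 on chromosome 6. Without the GC trend it was -0.39, and all 6 were below 0.

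Cdkn2c (chr4:109660876-109667189), the gene of p18INK4c, was the member farthest from any region. The nearest, 302362 bp upstream, covered Dmrta2, a transcription factor gene of the embryonic forebrain, with a level of 66.6 per kilobase in WT and 76.0 in MommeD43, a difference of 0.19 with a counting interval of 0.09 to 0.29. Without the GC trend it turned to -0.12. Only 13.8% of protein-coding genes lay as far from a region. On its 3′ side a region over Osbpl9 and Calr4, 404076 bp away, differed by 0.96, from 72.6 to 141 normalized counts per kilobase. After the GC correction it was 1.04. The 3 regions within 500 kb of Cdkn2c were all higher in MommeD43, but 2 of the 3 were below 0 after the correction.

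Cdkn2d (chr9:21288410-21291407), the gene of p19INK4d, was the nearest of the 4 to a region. The region over Ap1m2, a clathrin adaptor subunit, began 11494 bp upstream and had a level of 24.3 per kilobase in WT and 35.3 in MommeD43, a difference of 0.54 with a counting interval of 0.33 to 0.75. Downstream, 20560 bp away, a denser region over S1pr5, a sphingosine-1-phosphate receptor gene, Keap1 and Atg4d went from 121 per kilobase in WT to 201 in MommeD43, a difference of 0.73. After removal of the GC trend these became 0.35 at Ap1m2 and 0.43 at S1pr5. Of the 12 regions within 500 kb, 11 were higher in MommeD43 and their median was 0.44, against -0.01 on chromosome 9. Without the GC trend that median was 0.13, with 2 of the 12 below 0.

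**Figure D4:**
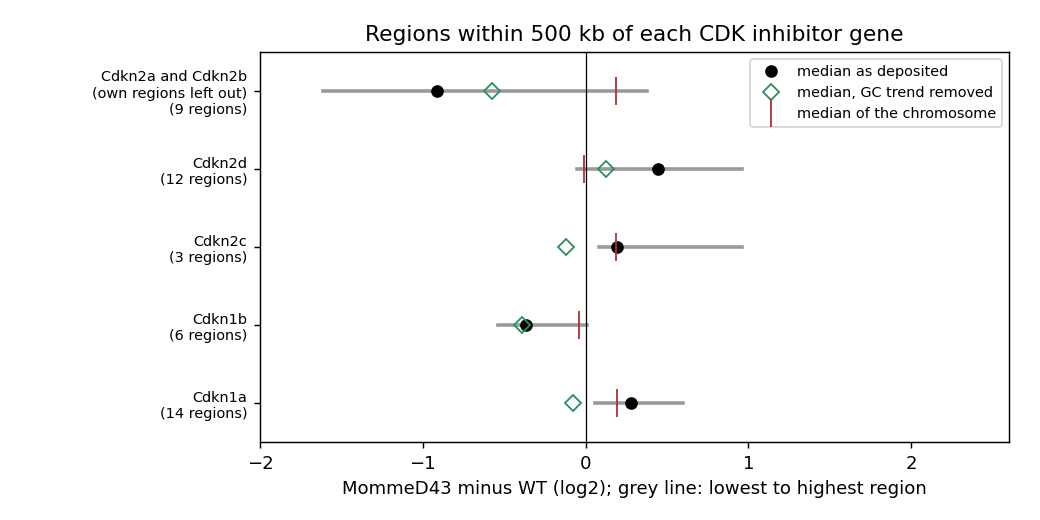
Difference MommeD43 minus WT (horizontal, log2) of the regions within 500 kb of each member (black point median, grey line lowest to highest region, green diamond median with the GC trend removed, red tick median of the chromosome). Medians are -0.91 around Cdkn2a and Cdkn2b, without the 2 regions on these genes themselves, -0.37 around Cdkn1b, 0.19 around Cdkn2c, 0.28 around Cdkn1a and 0.44 around Cdkn2d.

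The surroundings of the members therefore did not share a direction. The medians around Cdkn2a with Cdkn2b and around Cdkn1b were below 0 with and without the GC correction, that around Cdkn2d was above 0 both ways, and those around Cdkn1a and Cdkn2c went from above to below 0. Regions next to each other share their surroundings and are not independent, and no test of these medians was made.

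The remaining Cip/Kip gene, Cdkn1c, is imprinted and is not a member. It lay in a 205850 bp region with Kcnq1, Slc22a18 and Phlda2, with a level of 113 per kilobase in WT and 116 in MommeD43, a difference of 0.03 with a counting interval of 0.0022 to 0.05. With the GC trend removed it was -0.27. Cdkn3, Cdkn2aip and Cdkn2aipnl, which share only the stem of the name, had no region within 5 kb. Among all these genes Cdkn2a had the densest marking.

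Genes that act with the inhibitors were taken as lists, 1 for each branch of the pathway. Against 43.3% of all protein-coding genes, 12 of 24 genes of the retinoblastoma and E2F branch had a region within 5 kb. Of these 15 regions 8 were higher and 7 lower in MommeD43, with a median of 0.06, which the GC correction turned to 7 and 8 with a median of -0.10. E2f4, a repressor E2F, was the only gene with a region past 1 in either direction, at 1.17, where 9.12% of all regions were past 1 and 6.09% were higher by at least 1. That region, chr8:105251301-105299500, went from 63.4 normalized counts per kilobase in the WT column to 142 in the other and covered E2f4 with 8 other protein-coding genes. With the GC trend removed its difference was 0.77, no longer past 1. The kinases that the Ink4 proteins bind, looked up after their values were seen, went opposite ways. The Cdk4 region, shared with 5 other genes, had a level of 120.8 per kilobase in WT and 186 in MommeD43, a difference of 0.63. The Cdk6 region, over the start of that gene alone, had 114 in WT against 71.6 in MommeD43, a difference of -0.68. Ccnd2, which encodes their partner cyclin D2, differed by 0.55, and E2f5, a further repressor E2F, had the lowest value of the branch at -0.90. GC-corrected values were 0.29 at Cdk4, -0.58 at Cdk6, 0.26 at Ccnd2 and -0.40 at E2f5. Rb1, its relatives Rbl1 and Rbl2, Cdk1 and Cdk2 had no region.

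In the ARF and p53 branch 3 of 14 genes had a region within 5 kb, against 43.3% of all protein-coding genes. While 9.12% of all regions were past 1, none of these 4 was. Their median was 0.03, or -0.12 after the GC correction, with 2 higher and 2 lower both ways. The genes were Npm1, the ARF-binding nucleolar protein, Mycn, a MYC transcription factor gene, and Trp73, a p53 relative. The region over the Npm1 start, shared with Tlx3 and Ranbp17, had 287 normalized counts per kilobase in WT, nearly the level of Cdkn2a, and 388 in MommeD43, a difference of 0.43. A second region, 2187 bp from Npm1 over Fgf18, was lower, at 89.2 in WT and 68.7 in MommeD43, a difference of -0.38. Mycn, alone in its region, went from 119.7 to 88.6 and differed by -0.43. Trp73, with Wrap73, went from 70.1 to 120.4 and differed by 0.78. After the GC correction the values were 0.28 at the Npm1 start, -0.68 at the second region, -0.52 at Mycn and 0.44 at Trp73. Neither p53 itself (Trp53) nor Mdm2 had a region within 5 kb, though one lay 5375 bp from Mdm2.

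Among Polycomb subunits and other upstream regulators of the locus, 13 of 20 genes had a region, against 43.3% of all protein-coding genes. While 9.12% of all regions were past 1, none of these 18 was. Of these 10 were higher and 8 lower in MommeD43, with a median of 0.16, and the values ran from -0.68 at Hmga2 to 0.84 at Kdm2b. The GC correction turned the balance, to 7 above and 11 below 0 with a median of -0.05, and left Hmga2 at -0.64 and Kdm2b at 0.48. Id4, whose start lay in an 87500 bp region, differed by -0.63. The densest lay over Tbx2, a repressor of the Cdkn2a locus, together with Tbx4 and 2 other genes, over Pcgf2 with 7 other genes, and over Bmi1 with Commd3 and Spag6. They had 224, 217 and 184 normalized counts per kilobase in WT, and differed by 0.50, 0.30 and 0.15. Without the GC trend Tbx2 was at 0.31, Pcgf2 turned to -0.05 and Bmi1 was at 0.31. Ezh2, Eed and Suz12, the core subunits of the complex that places the mark, had no region within 5 kb.

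The table holds no expression values, so the cell type was checked here only through the mark. Over all protein-coding genes 29.9% had their start in a region. Of 10 NSC marker genes, 5 had their start in a region, at 33.4 to 78.7 normalized counts per kilobase in WT. Sox2, Fabp7, Vim and Notch1 had no region within 5 kb. Of 7 mesoderm and endoderm genes, 6 had their start in a region, at 74.3 to 280 normalized counts per kilobase. In WT the Cdkn2a region, at 289, was above this range, whereas in MommeD43, at 257, it was below T, Gata6, Foxa2 and Gata4, at 353, 345, 329 and 273. Starts in a region numbered 2 of 5 for neuron genes, 1 of 3 for astrocyte genes and 3 of 4 for oligodendrocyte genes. Their levels overlapped those of the NSC genes, for example 70.2 at Tubb3 and 78.7 at Gfap in WT. Regions of the marker genes were mostly higher in MommeD43, where 39.8% of all regions were below 0. This held for 5 of 6 regions of the NSC genes, 6 of 6 of the mesoderm and endoderm genes, 4 of 4 of the oligodendrocyte genes, 1 of 1 of the astrocyte genes and 13 of 13 of the neuron genes. The last came from only 3 genes, with 9 at Rbfox3, 3 at Dcx and 1 at Tubb3, and Dcx is X-linked, where the median over regions was 0.49. Marker genes with a region higher by at least 1 were Pax6 at 1.18, T at 1.39 and Dcx at 1.03 and 1.09. The GC correction left Pax6 at 0.84, T at 1.22 and Dcx at 1.61 and 1.64, and the counts above 0 became 4 of 6 for the NSC genes and 10 of 13 for the neuron genes, with no change for the other marker lists. The part of the cells' makeup in the results was not tested. The reads behind the median region were 100.1 per library in WT and 130 in MommeD43.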

How the data were processed

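H3K27me3 ChIP libraries of 3 WT and 3 MommeD43 NSC lines were analysed as deposited. The labels describe micrococcal nuclease digestion and the study's methods shearing. The authors trimmed reads (Trim Galore 0.4.4), aligned them with Bowtie2 2.3.4.1 to GRCm38.p6, counted them in SeqMonk after extension, called peaks on merged replicates against whole cell extract, took those of both genotypes, widened them by 2.5 kb and merged near ones. The deposited values are log2 read counts that the authors scaled to library size, with 1 mean per genotype, neither divided by length nor corrected for whole cell extract.

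The difference is MommeD43 minus WT. A mean of 3 log2 counts is the log of a product, so reads were read back from the constant that makes low products whole: below 30000, 1138 of 1139 WT and 681 of 684 MommeD43 products came within 0.1 of a whole number. The smallest counting error assumes Poisson counts spread evenly over the libraries. Reading counts back and removing trends were tested on simulated data. Genes came from GENCODE M21, base composition and promoters from RefSeq GRCm38.p6. Trends were running medians over 40 bins, the GC trend on autosomal regions. Members and lists were chosen with earlier results of these data known. The genes named are the members, the genes sharing or nearest to their regions, pathway list genes past 1 on the log2 scale, and otherwise the 3 densest of each pathway list; other genes were named after their values were seen. Libraries of whole cell extract were not analysed here. Python 3.11.15, numpy 2.4.6, pandas 2.3.3 and matplotlib 3.10.9 were used.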

Additional observations from a re-analysis of the deposited data

How the results depend on the processing

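No paired analysis was possible because each genotype has a single pooled column, and for the same reason leaving out each replicate, a replicate block and other count models were not run. The Cdkn2a and Cdkn2b differences and the medians stayed below 0 under every alternative tried. With both columns brought to an equal total, Cdkn2a was -0.41, Cdkn2b -0.62, their median -0.51 and the median of the other regions within 500 kb -1.16, as the common shift of -0.24 requires. With the autosomal median set to 0, Cdkn2a was -0.24. With the abundance trend removed, Cdkn2a was -0.48 and the median of both -0.46. With the GC trend removed, Cdkn2a was -0.012, less than its counting error of 0.017, so that its sign was not resolved. The median of the other regions was then -0.58. For the trends the cause was not tested. The 827 higher and 412 lower regions past 1 became 491 and 779 with total scaling, 542 and 209 among regions with 50 or more reads on average, which are fewer, and 1140 and 97 with the GC trend removed. Members with a region numbered 3 with gene bodies widened by 20 kb, which adds Cdkn2d, and 4 with 50 kb, which adds Cdkn1a. The alternatives for the other regions within 500 kb were chosen after seeing the data. Depth limits Cdkn2b, whose counting error of 0.12 is about that of the median region, 0.11.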
